A study of Mus musculus with 8 samples.

Results

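RNA sequencing of whole mouse lung at E13.5 was used to follow 10 genes of the Notch pathway: the receptors Notch1, Notch2 and Notch3, the ligands Jag1, Jag2, Dll1 and Dll4, and the targets Hes1, Hey1 and Heyl. They were chosen by name, and all 10 were found among the 55401 genes of the deposited count table and among the 15788 genes with enough counts to be tested. The mutant group had 4 libraries of lungs with the genotype written as Tbx4tetOcre with MyrfE6. The control group had 4 libraries written as cre control. Tbx4 is a transcription factor gene of lung mesenchyme and tetO is part of a drug-controlled switch, but the labels explain neither the Cre driver nor the MyrfE6 allele, and give no drug treatment. They also do not say how many embryos made up a library or which transgenes the controls carried. Separate litters are not stated either, and the p-values therefore reflect only how far these libraries scatter, part of which may be technical.

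Notch receptors sit in the cell membrane and are cut when a Jagged or Delta-like ligand on a neighbouring cell binds them. The freed intracellular domain joins the DNA-binding protein RBPJ and switches on genes of the HES and HEY families, which encode repressors. In developing lung the pathway is known for separating airway cell fates and for its part in arteries and in the smooth muscle and pericytes around vessels.

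Totals were 17819285 to 48679134 counts in mutant and 17799899 to 19032389 in control libraries. Myrf, the targeted gene, measured 88.3 ± 4.16 CPM (counts scaled to library size) in mutant and 114 ± 5.63 CPM in control libraries (SD, n = 4 each). Its log2 fold change was -0.37 (SE 0.0439, adjusted p = 0.000211, edgeR quasi-likelihood test). Nkx2-1, the defining transcription factor of lung epithelium, was present at 187.6 ± 7.92 CPM in mutant and 175.2 ± 12.3 CPM in control libraries. Sex-linked transcripts were unevenly spread: mutant replicates 1 and 2 carried Y-linked RNA and almost no Xist, control replicates 2 and 3 carried Xist and almost no Y-linked RNA, and the other 4 libraries held each kind. These 4 are called the sex-mixed libraries here. Values with the Y-linked level as a covariate, and within the sex-mixed libraries, are given where the sign differs or the value moves by over 1.5 times.

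None of the Notch genes passed the test for a change in the mutant lung. In edgeR 0 of 10 passed at an adjusted p below 0.05, against a background of 1.49% of tested genes (0.564% higher and 0.931% lower in mutant). The count was also 0 with DESeq2 (background 2.29%) and with limma-voom (background 1.3%). At an unadjusted p below 0.05 there were also 0 of 10, where 13.9% of all tested genes lay. Their log2 fold changes, mutant over control, ran from -0.10 to 0.15, with 6 positive and 4 negative and a median of 0.018. The median over all tested genes was 6.51e-05. The median size of change was 0.056 for the 10 genes and 0.068 for all tested genes, or 0.050 for the 11114 genes expressed at least as highly as the lowest of the 10. Mutant and control libraries overlapped in level for each of the 10 genes, while 7.35% of all tested genes had groups that did not overlap (3.31% higher in mutant).

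The 95% intervals show which sizes of change lie outside what these libraries allow. For 9 of the 10 genes the whole interval lay between -20% and 25%, limits of equal size on the log2 scale (the 25% band), and for all 10 it lay within 1.5-fold in either direction. The same held for 63.9% and 80.7% of all tested genes, and for 88.9% and 98.3% of genes at least as high as the lowest member, so the narrow intervals are shared with other genes of this level. Dll1 had the widest interval, reaching 1.28-fold. With intervals widened so that all 10 hold together at 95%, the farthest limit was 1.38-fold, again for Dll1, and only Dll1 and Hes1 (1.29-fold) left the 25% band. RNA of the whole lung was measured, so fewer cells of a type and less RNA per cell cannot be told apart, and a change in a minor cell type is averaged with the other cells that express the gene.

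**Figure D1:**
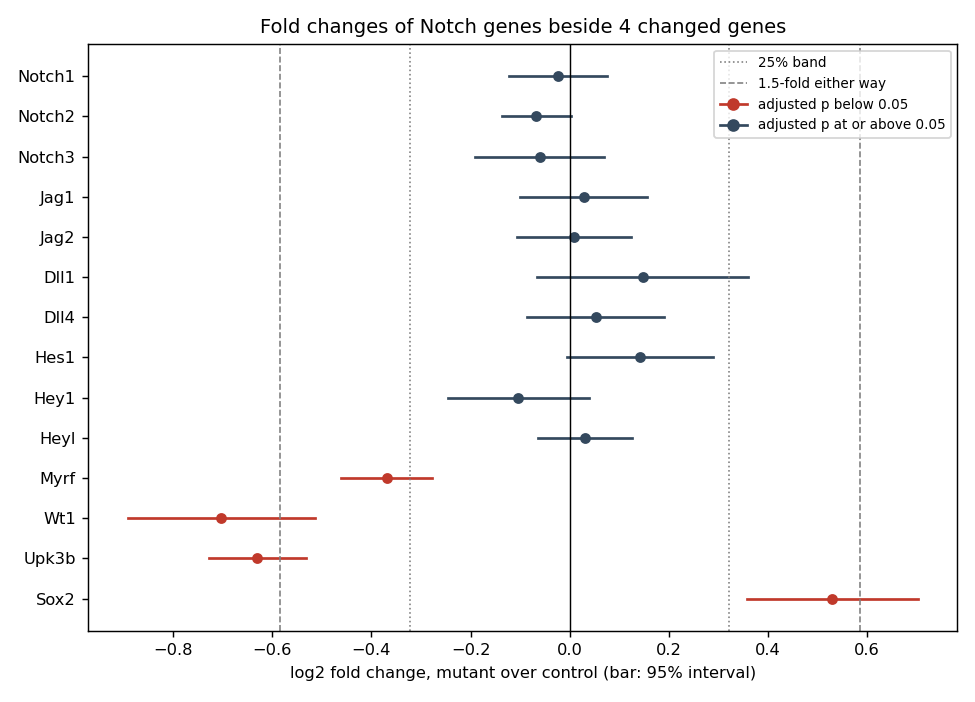
Log2 fold change of each Notch gene, mutant over control (points), with its 95% interval (bars), beside Myrf, Wt1, Upk3b and Sox2, which passed the test. Grey lines mark the 25% band and 1.5-fold in either direction. The bars of 9 Notch genes stay inside the 25% band and that of Dll1 reaches 1.28-fold.

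Levels between genes were compared per exon length, as TPM (counts scaled to exon length and library size) computed from the deposited counts and lengths. Notch3 stood highest, at 138.5 ± 11.7 TPM in mutant and 142.6 ± 9.50 TPM in control libraries. Hes1 followed at 74.4 ± 6.52 TPM in mutant and 66.2 ± 5.77 TPM in control libraries, then Heyl at 51.9 ± 2.79 and 50.1 ± 2.41 TPM in mutant and control. Notch2 measured 41.6 ± 0.604 TPM in mutant and 43.0 ± 1.36 TPM in control, and Notch1 33.7 ± 2.10 TPM in mutant and 33.8 ± 1.88 TPM in control. Jag2, Dll4, Hey1 and Jag1 lay between 17.0 and 26.2 TPM in single libraries, and Dll1 was lowest at 5.59 ± 0.401 TPM in mutant and 4.95 ± 0.138 TPM in control. Over the 8 libraries the ranges of Jag2 and Dll4 overlapped, as did those of Hey1 and Jag1. The other neighbours in this order had ranges that did not overlap. The order depends on the deposited lengths, which merge all exons of a gene (14232 bases for Notch1 and 10782 for Notch2). By mean CPM Notch1 stood above Notch2, at 137.0 against 127.9 in mutant and 139.1 against 134.0 in control libraries.

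Shares within the receptor and ligand pools, which depend on the same lengths, were also compared. Notch3 held 59.6 ± 1.34% of the summed TPM of the 4 receptors (Notch4 included) in mutant and 59.9 ± 0.930% in control libraries. Notch2 held 17.96 ± 1.09% in mutant and 18.1 ± 0.680% in control, and Notch1 14.5 ± 0.362% in mutant and 14.2 ± 0.577% in control. Among the ligands, Dll4 held 32.6 ± 0.442% of the summed TPM in mutant and 32.5 ± 1.77% in control. Jag2 held 32.4 ± 1.35% in mutant and 33.3 ± 1.92% in control, and Jag1 25.8 ± 1.08% in mutant and 26.1 ± 1.08% in control. Differences of these 6 shares were within the larger of the group SDs. Dll1 held 7.62 ± 0.357% of the ligand sum in mutant and 7.09 ± 0.434% in control libraries, a difference larger than either SD. Within the sum of the 3 targets, Hes1 held 51.4 ± 2.44% in mutant and 48.7 ± 2.21% in control, and Hey1 12.7 ± 1.21% in mutant and 14.3 ± 0.389% in control, again differing by more than either SD. Heyl held 35.9 ± 1.41% in mutant and 37.0 ± 1.97% in control. Differences in shares were not tested.

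**Figure D2:**
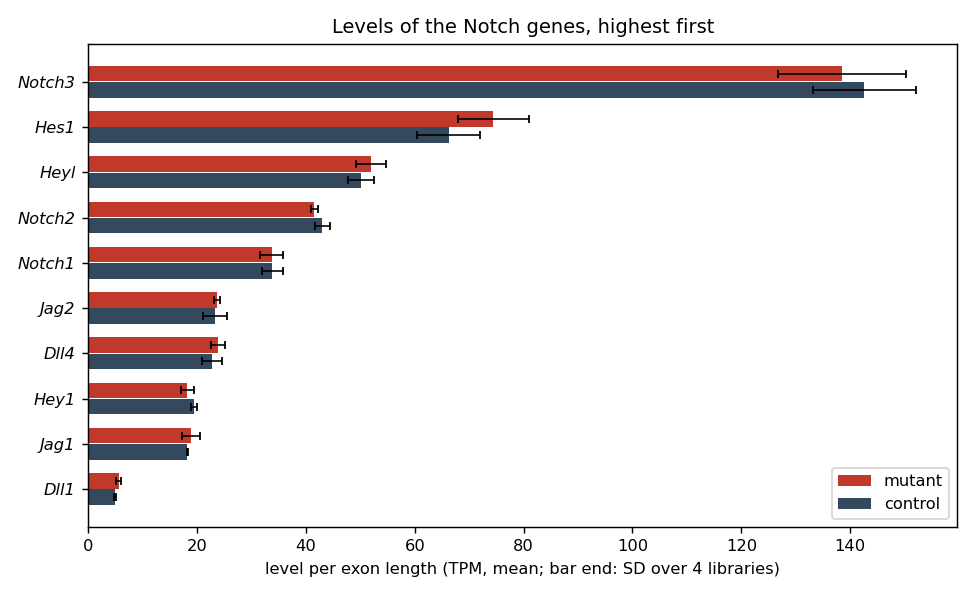
Mean level per exon length (TPM) of each Notch gene in 4 mutant (upper bar, red) and 4 control libraries (lower bar, dark), with SD. Notch3 is highest at 138.5 TPM in mutant and 142.6 TPM in control libraries, and Dll1 lowest at 5.59 and 4.95 TPM in mutant and control.

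The receptors had fold changes close to 1 and narrow intervals. Notch1, known for its role in endothelium and arteries, lies on chromosome 2 from 26457903 to 26516663 (minus strand, GRCm38). It measured 128.4, 134.5, 135.7 and 149.4 CPM in mutant replicates 1 to 4 and 130.1, 144.8, 136.7 and 144.9 CPM in control replicates 1 to 4. Each group had its lowest value in replicate 1, and the ranges largely coincided. Mutant over control, the estimate was -0.024 on the log2 scale (SE 0.0466, adjusted p = 0.877, edgeR), with a 95% interval from -8.10% to 5.31%. Its sign was positive with the Y-linked covariate (0.0071), in the sex-mixed libraries (0.057) and without mutant replicate 1 (0.011).

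Notch2, a receptor of many mesenchymal and epithelial cells, lies on chromosome 3 from 98013527 to 98150361 (plus strand). Its mutant libraries held 126.5, 128.8, 129.0 and 127.1 CPM, and its control libraries 128.8, 134.0, 136.4 and 136.7 CPM. All mutant libraries were below control replicates 2 to 4, and control replicate 1 fell among them. The log2 fold change was -0.067 (SE 0.0334, unadjusted p = 0.0595, adjusted p = 0.385, edgeR), and the interval ran from -9.08% to 0.208%. Exons of Notch2 overlap those of the provisional gene Gm42820 on the same strand, and reads in shared bases were left out of the counts.

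Notch3, the receptor of vascular smooth muscle and pericytes, lies on chromosome 17 from 32120820 to 32166852 (minus strand). Levels were 288.1, 308.5, 332.4 and 349.9 CPM in mutant replicates 1 to 4, and 311.0, 353.2, 346.6 and 322.0 CPM in control replicates. The mutant group spread over a wider range, with replicates 1 and 2 below every control. On the log2 scale the difference was -0.060 (SE 0.0597, adjusted p = 0.728, edgeR), with an interval from -12.4% to 4.99%. The sign turned with the Y-linked covariate (0.037) and in the sex-mixed libraries (0.11, interval 0.0098 to 0.22, adjusted p = 0.512, edgeR).

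**Figure D3:**
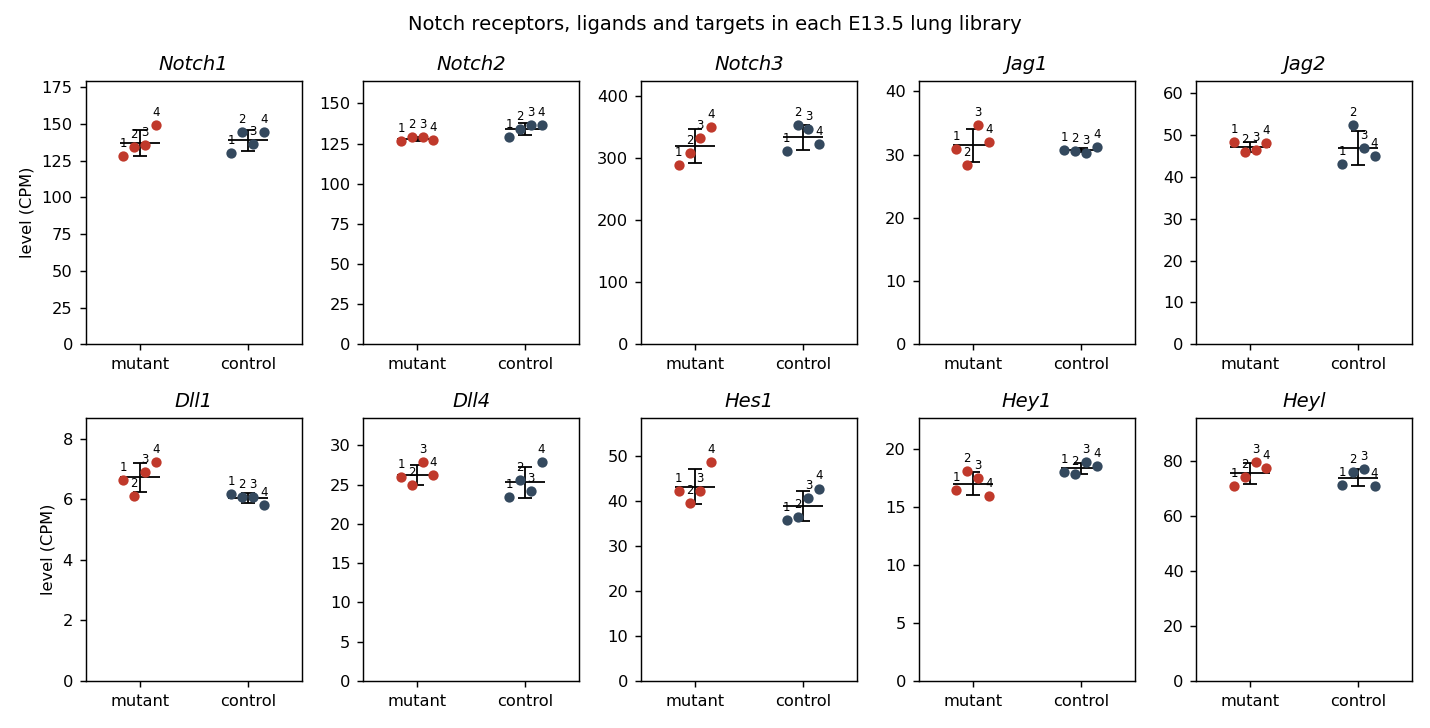
Level (CPM, scaled by trimmed means) of each Notch gene in every library, mutant at left (red) and control at right (dark), with mean and SD (n = 4 each) and replicate numbers. Mutant and control points overlap in all 10 panels; the vertical axes start at 0 and differ between genes.

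The ligands Jag1 and Jag2, which encode the Jagged proteins of airway epithelium and vessels, did not pass. Jag1, on chromosome 2 from 137081456 to 137116644 (minus strand), measured 30.9, 28.4, 34.7 and 31.9 CPM in mutant replicates 1 to 4. Its control libraries lay close together, at 30.8, 30.6, 30.3 and 31.1 CPM, inside the mutant range. The estimated log2 fold change was 0.028 (SE 0.0611, adjusted p = 0.887, edgeR), and the interval ran from -6.72% to 11.5%. Without mutant replicate 3, the highest library, it was -0.015.

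Jag2 lies on chromosome 12 from 112907819 to 112929776 (minus strand). Its libraries held 48.2, 45.9, 46.4 and 48.0 CPM in the mutant and 43.1, 52.4, 46.8 and 45.0 CPM in the control group. Here the controls spread more widely, and all mutant values fell within their range. The log2 fold change of 0.0080 was the smallest of the 10 (SE 0.0548, adjusted p = 0.968, edgeR), with an interval from -7.16% to 8.91%. It was negative without control replicate 1 (-0.031), without control replicate 4 (-0.0098) and without mutant replicate 4 (-3.17e-05).

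Dll4, the Delta-like ligand of arterial endothelium, lies on chromosome 2 from 119325784 to 119335962 (plus strand). Mutant replicates measured 26.0, 24.9, 27.9 and 26.2 CPM and control replicates 23.4, 25.6, 24.1 and 27.9 CPM. Control replicate 4 stood level with mutant replicate 3, the highest of its group, and the other controls were lower. The difference on the log2 scale, 0.052 (SE 0.0661), had an adjusted p of 0.79 in edgeR and an interval from -5.82% to 14.2%.

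Dll1, a Delta-like ligand known in mouse from neural progenitors and somites, had the highest estimate and the fewest counts. It lies on chromosome 17 from 15367354 to 15376872 (minus strand) and was read with 103 to 298 counts per library. Levels were 6.65, 6.10, 6.92 and 7.25 CPM in mutant replicates 1 to 4, and 6.17, 6.08, 6.09 and 5.80 CPM in control replicates. Mutant replicates 1, 3 and 4 were above every control, and mutant replicate 2, the deepest library, lay within the control range. The estimate for Dll1 was 0.15 on the log2 scale (SE 0.101, adjusted p = 0.571, edgeR), with an interval from -4.41% to 28.3%. Within the sex-mixed libraries the farthest limit of Dll1 was 1.499-fold.

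The promoter of Dll1 is shown because Dll1 had the highest estimate, and HES repressors are known to act on letters called the N-box. RefSeq (GRCm38.p6) gave windows of 250 bases before to 50 after a gene's start for 7 of the 10 genes, not for Hes1, Hey1 and Heyl. Dll1 has a pair of windows, and the other held none of the motifs searched. The window of its upstream RefSeq start is chr17:15376883-15377182 on the minus strand, and capitals mark the N-box letters CACNAG, from base 264.
Dll1 upstream start: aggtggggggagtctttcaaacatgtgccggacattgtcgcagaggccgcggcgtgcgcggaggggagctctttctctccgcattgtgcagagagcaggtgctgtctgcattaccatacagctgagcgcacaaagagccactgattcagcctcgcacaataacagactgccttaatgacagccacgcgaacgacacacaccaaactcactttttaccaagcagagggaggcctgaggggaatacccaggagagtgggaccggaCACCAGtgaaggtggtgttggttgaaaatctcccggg
Both strands were searched. Of the 8 windows of the Notch genes, 5 held CACNAG and 0 held the RBPJ letters GTGGGAA. Over all 32851 windows of this length, the shares were 42.5% for CACNAG and 6.38% for GTGGGAA. A pair of CACNAG matches in the Notch1 window overlapped each other. These matches describe letters and are not evidence of binding.

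The targets had estimates of either sign. Hes1, the repressor that is switched on by Notch in many epithelia, lies on chromosome 16 from 30064384 to 30067796 (plus strand). It measured 42.3, 39.6, 42.3 and 48.8 CPM in mutant replicates 1 to 4 and 35.7, 36.6, 40.7 and 42.9 CPM in control replicates. Mutant replicate 4 was above every control, and control replicates 1 and 2 were below every mutant library. Hes1 had an estimate of 0.14 on the log2 scale (SE 0.0693, unadjusted p = 0.0568, adjusted p = 0.376, edgeR) and an interval from -0.313% to 22.3%. It was positive under all 18 alternatives, between 0.084 and 0.22, with adjusted p from 0.0991 to 0.636.

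Hey1, a HEY repressor of arterial endothelium, lies on chromosome 3 from 8663359 to 8667256 (minus strand). Its mutant libraries measured 16.5, 18.1, 17.5 and 15.9 CPM and its control libraries 17.98, 17.85, 18.9 and 18.5 CPM. Mutant replicates 1, 3 and 4 were below every control. The estimate for Hey1 was -0.10 on the log2 scale (SE 0.0676, adjusted p = 0.542, edgeR), the lowest of the 10, with an interval from -15.6% to 2.70%.

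Heyl, a target in vascular smooth muscle, lies on chromosome 4 from 123233556 to 123249875 (plus strand). Levels were 71.2, 74.3, 79.9 and 77.6 CPM in mutant replicates and 71.5, 76.3, 77.1 and 71.2 CPM in control replicates. The estimate for Heyl was 0.032 on the log2 scale (SE 0.0451, adjusted p = 0.819, edgeR) and the interval ran from -4.27% to 9.16%. The group ranges nearly coincided.

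The sex-linked settings moved several of these estimates without a call. In the sex-mixed libraries Heyl had 0.15 (interval 0.019 to 0.28, adjusted p = 0.486, edgeR) and Hes1 0.22 (interval 0.00036 to 0.43, adjusted p = 0.576, edgeR). Like that of Notch3, these intervals left out 0, while those of the other 7 genes held it. Jag1 had 0.11, Jag2 0.10, Dll1 0.25 and Dll4 0.085 in the same libraries. With the Y-linked covariate Heyl had 0.100 and Jag2 0.11, and all 10 intervals held 0.

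Across the 8 libraries, the 45 pairs of these genes had Pearson correlations of log2 CPM from -0.86 to 0.79, given as a description because the points share library, depth and genotype. Notch2 and Hey1 stood highest (0.79), then Notch1 and Notch3 (0.77) and Notch3 and Heyl (0.73), while Dll1 and Hey1 stood lowest (-0.86). Out of 12289 candidate genes, those most like each member by Pearson correlation over the 8 libraries had values between 0.923 and 0.984. They were Tln1 and Pced1b for Notch1, Prr18 and Daam2 for Notch2, Rrbp1 and Helz for Notch3, Ror2 and Mcf2l for Jag1, and Nptx1 and Pak6 for Jag2. For Dll1 they were Dmtn and Ldlrad4, for Dll4 Disc1 and Kctd3, for Hes1 Ppp1r3f and Scara5, for Hey1 Ttc26 and Zfp455, and for Heyl Cbx6 and Lbr. These genes were picked as the highest of 12289 over 8 libraries, and whether such values exceed chance was not tested.

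The rest of the pathway was followed with 49 further genes in 6 groups, of which 48 were tested. In edgeR 0 of 48 passed, beside 1.49% of all tested genes. An unadjusted p below 0.05 was found for 10 (5 higher and 5 lower), beside 13.9% of all tested genes. With DESeq2 2 passed (background 2.29%) and with limma-voom 0 (background 1.3%). Their median log2 fold change was 0.0053 and their median size 0.057. Groups did not overlap in 6 of 48, beside 7.35% of all tested genes. Hes5, a target gene of neural progenitors, was not tested, with at most 3 counts in a library.

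Adam10 came nearest to the threshold in edgeR, followed by Mib1 and Ccnd1, which shared an adjusted p of 0.139. Adam10 encodes the protease that makes the first cut after ligand binding. It measured 111.0, 119.2, 130.8 and 123.4 CPM in mutant replicates and 137.2, 144.9, 144.9 and 129.2 CPM in control replicates, so the groups overlapped through mutant replicate 3 and control replicate 4. Its log2 fold change was -0.20 (SE 0.0488, adjusted p = 0.0516, edgeR), and adjusted p ran from 0.000588 to 0.844 over its 18 alternatives, 6 of which passed. With the Y-linked covariate Adam10 had -0.12, and in the sex-mixed libraries -0.063. Mib1, the ubiquitin ligase that activates ligands in the sending cell, measured 98.1 ± 8.36 CPM in mutant and 115 ± 9.42 CPM in control libraries. The estimate for Mib1 was -0.23 on the log2 scale (SE 0.0695, adjusted p = 0.139, edgeR), and it passed in 3 of 18 alternatives. With the Y-linked covariate Mib1 had -0.14, and in the sex-mixed libraries -0.059. Mib1 and Adam10 passed with DESeq2, with no low-count filter and without control replicate 4.

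Of the 10 genes of receptor and ligand processing, 5 had positive and 5 negative log2 fold changes. The γ-secretase subunits Ncstn and Aph1a had values of 0.090 and -0.0028. Aph1b had 0.43 (adjusted p = 0.209, edgeR) and its near-identical paralog Aph1c -0.18 (adjusted p = 0.668, edgeR), and reads common to both were not counted, so these are uncertain. All 5 genes that add sugars to the receptors, Lfng, Mfng, Rfng, Pofut1 and Poglut1, had intervals inside the 25% band. Of the 12 ubiquitin and endocytosis genes, 6 had positive and 6 negative values, and Numb, an inhibitor of Notch, had 0.0047.

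In the nuclear complex, 9 of 10 genes had intervals inside the 25% band. The exception was Rbpj, the DNA-binding core, whose libraries spread from 52.7 to 78.0 CPM in the mutant and from 51.7 to 76.0 CPM in the control group. Its log2 fold change was 0.021 with an interval from -0.41 to 0.45, and the table also lists near-identical pseudogenes of it, so its counts are uncertain. The cofactor Maml3 had -0.13 (adjusted p = 0.231, edgeR). Among the other targets, Nrarp, a feedback inhibitor induced by Notch, measured 17.9 ± 0.417 CPM in mutant and 17.4 ± 2.67 CPM in control libraries (log2 fold change 0.039, SE 0.0893, adjusted p = 0.894, edgeR). Ccnd1, a cell cycle gene, had -0.10 (SE 0.0324, adjusted p = 0.139, edgeR), with every mutant library below every control. Notch4, the endothelial receptor, had -0.051 (SE 0.0645). Dlk1, a non-classical ligand and the highest of the list, had 0.11 (SE 0.0467, adjusted p = 0.321, edgeR).

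**Figure D4:**
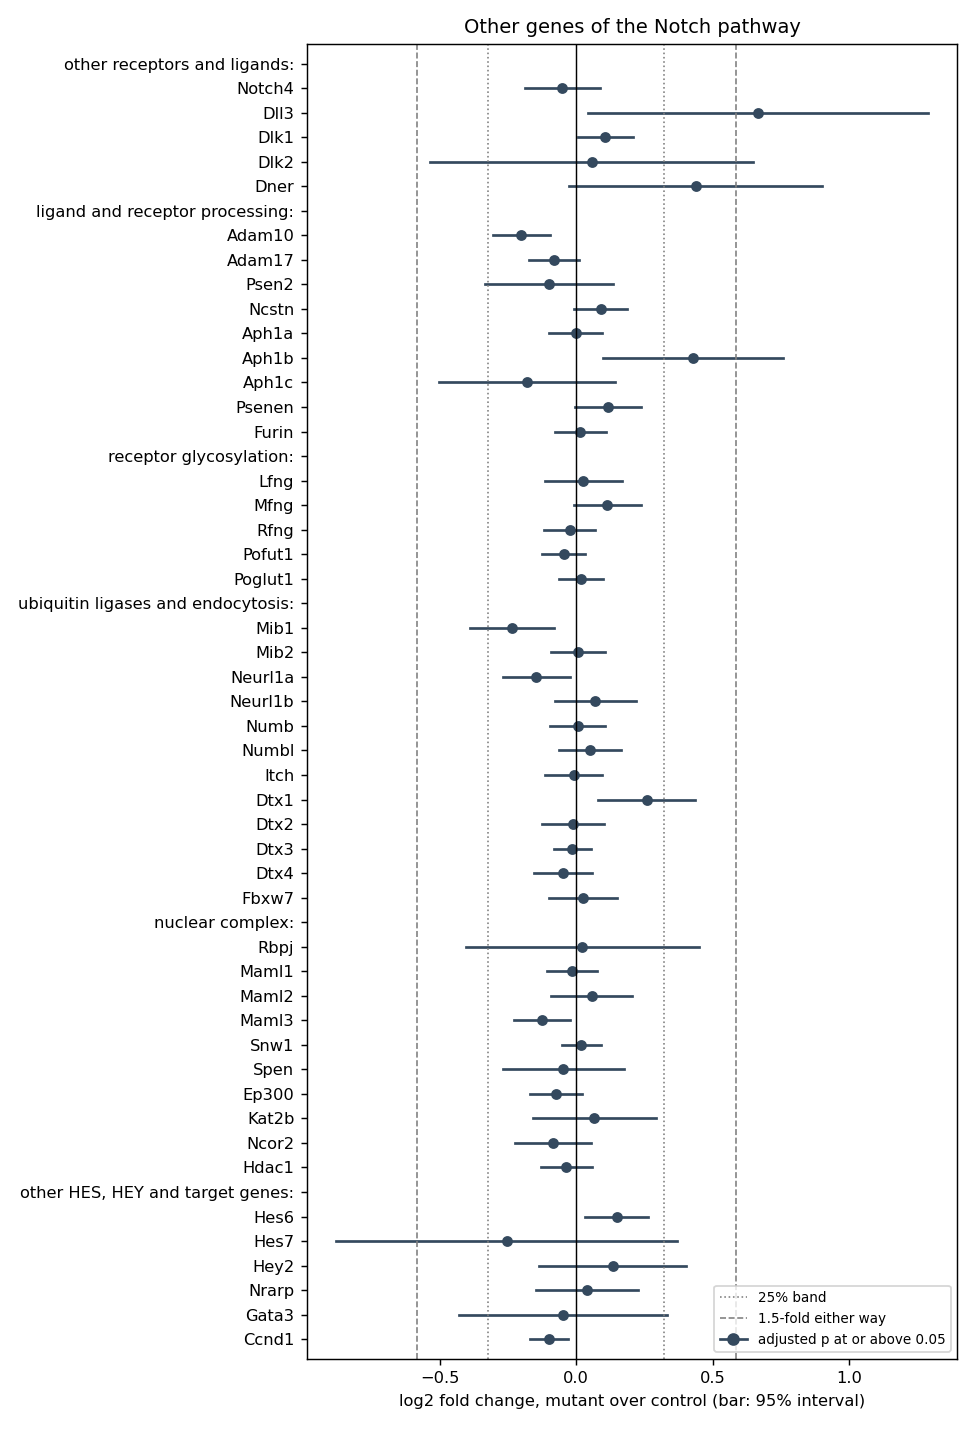
Log2 fold change, mutant over control, with 95% interval for 47 of the 48 tested other genes of the Notch pathway, in 6 groups. None of those drawn passed in edgeR; Adam10 at -0.20 and Mib1 at -0.23 lie left of 0, and low genes such as Dll3 and Hes7 have the wide bars.

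Dll3 and Hes6 had positive estimates in the pathway list and are given with genes of neuroendocrine cells, an airway cell type, all chosen after their values were seen. None of the 4 genes shown passed. The full list of 7 neuroendocrine genes had 4 positive and 3 negative log2 fold changes, the latter for Syp (-0.049), Calca (-0.10) and Chgb (-0.16). Dll3, an inhibitory ligand made in neuroendocrine cells, measured 1.18, 0.982, 1.07 and 0.562 CPM in mutant and 0.475, 0.563, 0.790 and 0.619 CPM in control replicates (log2 fold change 0.67, SE 0.297, adjusted p = 0.313, edgeR). Hes6, whose product inhibits HES1, measured 35.2 ± 0.811 CPM in mutant and 31.8 ± 2.13 CPM in control libraries (log2 fold change 0.15, SE 0.0552, adjusted p = 0.214, edgeR). Insm1, a zinc-finger factor of neuroendocrine cells, measured 1.47 ± 0.422 CPM in mutant and 0.928 ± 0.346 CPM in control libraries (log2 fold change 0.67, SE 0.287, adjusted p = 0.292, edgeR). Chga, a granule protein gene, measured 0.661 ± 0.123 CPM in mutant and 0.375 ± 0.128 CPM in control (log2 fold change 0.86, SE 0.347, adjusted p = 0.247, edgeR).

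**Figure D5:**
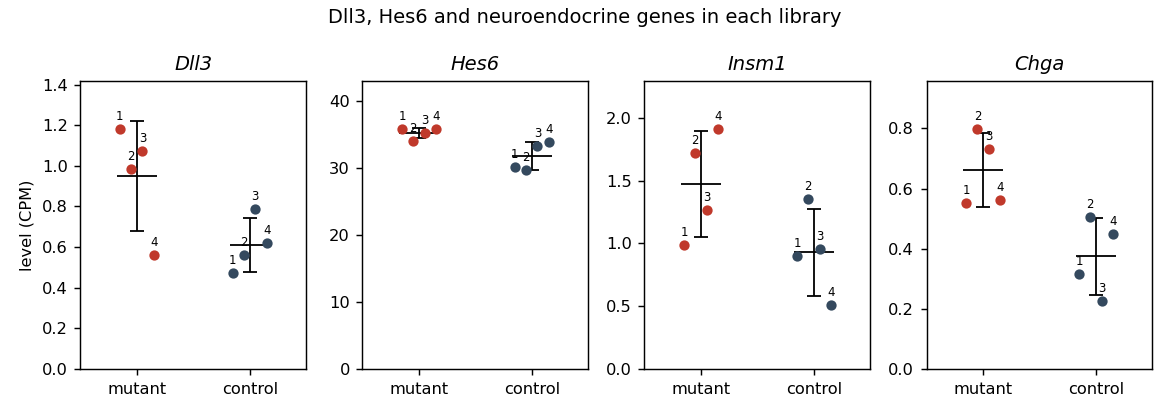
Level (CPM) of Dll3, Hes6, Insm1 and Chga in each library, mutant at left (red) and control at right (dark), with mean and SD (n = 4 each) and replicate numbers. The points of Dll3 and Insm1 overlap between groups, and Hes6 averages 35.2 CPM in mutant and 31.8 CPM in control libraries.

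Markers of the cells that use the pathway were compared beside these values. For every marker list the background is the 1.49% of all tested genes that passed in edgeR (0.564% higher and 0.931% lower in mutant). The 9 blood vessel endothelial genes all had positive log2 fold changes, with 1 passing as higher (Emcn, 0.19, adjusted p = 0.0479, edgeR). For Emcn the adjusted p was 0.0278 with DESeq2 and 0.0560 with limma-voom. The list summed to 1158 to 1231 CPM in mutant and 1074 to 1166 CPM in control libraries. Of 6 arterial genes 0 passed, with 2 positive and 4 negative values. The 2 highest, Efnb2, the ephrin ligand of arteries, and Nrp1, a co-receptor for vascular endothelial growth factor, had -0.049 and 0.15 (adjusted p = 0.696 and 0.259, edgeR). Of 6 tested pericyte genes 0 passed. Pdgfrb, their platelet-derived growth factor receptor, had 0.00078 (SE 0.0343), beside -0.060 for Notch3 and 0.032 for Heyl. Rgs5, the next highest pericyte gene, had -0.064 with a wider interval, from -0.44 to 0.32. All 8 smooth muscle genes had positive values with 0 passing, and summed to 1288 to 1417 CPM in mutant and 1201 to 1306 CPM in control libraries. Of 7 tested genes of neurons and neural crest, 5 had positive and 2 negative values, and Ret passed as higher (0.37, adjusted p = 0.0453, edgeR). For Ret the adjusted p was 0.0186 with DESeq2 and 0.0614 with limma-voom. The neuron and neural crest list summed to 40.8 to 48.0 CPM in mutant and 33.6 to 38.5 CPM in control libraries. In the proximal airway list Sox2 (0.53) and Cldn10 (0.40) rose among 8 genes, of which 4 had positive and 4 negative values.

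Of 8 pan-epithelial genes 0 passed, all with positive values, and of 7 distal tip genes 1 fell, Etv5 (-0.18, adjusted p = 0.021, edgeR). Of 9 mesothelial genes 4 fell (Upk3b, Gpm6a, Wt1 and Lrrn4, from -0.81 to -0.39), and the list summed to 174.6 to 213.0 CPM in mutant and 246.1 to 272.7 CPM in control libraries. Mrc1 was the 1 lower gene of 6 leukocyte genes (-0.29, adjusted p = 0.0334, edgeR), and 0 of 5 tested heart muscle genes passed. How much these shifts in cell markers contribute to the Notch genes' values was not tested.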

How the data were processed

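For 8 lung libraries the authors deposited unnormalized counts of read pairs for each gene. Per the file headers they were made with featureCounts 1.6.4, paired and reverse-stranded, over exons of GENCODE vM25. Reads mapping to several places or overlapping several genes on a strand were left out. STAR, DESeq2 and GRCm38 are named in the submitters' processing notes, which give no STAR version. Gene symbols were matched by Ensembl ID for 55141 of 55401 genes. Total counts ranged from 17799899 to 48679134.

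All libraries entered 1 fit in edgeR 4.0.16 (R 4.3.3): the package's expression filter left 15788 genes with 99.9% of the counts. It used trimmed-mean (TMM) scaling, robust dispersions and quasi-likelihood F tests (two-sided) under Benjamini-Hochberg adjustment over all genes tested. CPM are TMM-scaled, and TPM use the deposited exon lengths, unscaled. The 95% intervals are the unshrunken coefficient ± the t quantile × SE. They were tested on counts simulated from the fitted dispersions, with independent libraries and no sex imbalance. That test therefore does not cover the sex imbalance of these libraries. Alternatives used DESeq2 1.42.0, limma-voom 3.58.1, other scalings and filters, a replicate block, a Y-linked covariate (log2 of summed CPM + 1) and leaving out each library.

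Members, lists and tests were chosen with earlier results of these data known. Named genes were all members, the pathway genes past the threshold, the 2 with the smallest p and the 2 highest. For marker lists the rule was up to 3 changed genes or else the 2 highest. It was not followed everywhere: the mesothelial list names 4, and the rule was not applied to the smooth muscle, pan-epithelial and heart muscle lists. Further genes named for their group or value were chosen after their values were seen. The pathway and marker lists were named from known roles, and some results for them are not reported here.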

Additional observations from a re-analysis of the deposited data

Results flagged for a closer look

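Of 30 sets of 4 libraries checked (15 genes in each group), 1 had a library far from its group. Ccnd1 measured 346 CPM in mutant replicate 4, while the other mutant libraries lay at 326.0, 325.6 and 325.5 CPM, and the control libraries lay between 349.7 and 359.6 CPM. The gap to the nearest mutant library was 0.977 of the group's range. Chance flags about 1 in 20 such sets.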

How the results depend on the processing

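The count of 0 changed Notch genes held under all 18 alternatives, and 10 of 10 intervals stayed within 1.5-fold. The count inside the 25% band was 9, and 7 in the sex-mixed libraries, a choice made after seeing the data, where Hes1 and Hey1 also left it. With the Y-linked covariate it was 8 and without each library in turn 8 to 9, Hes1 being the other gene outside. Signs turned for Notch1 with the Y-linked covariate (0.0071), in the sex-mixed libraries (0.057) and without single libraries (-0.066 to 0.011), for Notch3 with the covariate (0.037) and in the sex-mixed libraries (0.11), and without single libraries for Jag1 (-0.015 to 0.087) and Jag2 (-0.031 to 0.066). The causes were not tested. The count of changed pathway genes was 0, 2 with DESeq2, 1 with upper-quartile scaling (Adam10), 3 with no filter (Adam10, Mib1 and Aph1b) and 0 to 2 without single libraries: 2 without control replicate 4, 1 without mutant replicate 1 (Aph1b) and 1 without mutant replicate 3 (Adam10). The count over all genes was 236, 361 with DESeq2, 791 with no filter, 142 without robust estimation, 95 with the Y-linked covariate, 87 in the sex-mixed libraries and 96 to 479 without single libraries. Leaving out control replicate 1 gave 100, control replicate 2 gave 121, control replicate 3 gave 96, mutant replicate 2 gave 118 and mutant replicate 4 gave 479. The scalings shifted the median of all genes by at most 0.0109 on the log2 scale.

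The labels do not say whether replicate numbers pair the libraries. Same-numbered libraries had correlations of deviations of 0.0811, 0.0648, 0.181 and 0.0125. Mutant replicates 2 and 3 correlated best with their own number, replicates 1 and 4 not. With 4 libraries per group these values cannot settle whether the libraries are paired. With the replicate number as a block, 541 genes were called, with 0 Notch genes and 1 pathway gene (Adam10). Depth limits Dll1 and genes below 1 CPM such as Dll3: the floor of 3 counts was 0.0616 to 0.168 CPM in mutant and 0.158 to 0.169 CPM in control libraries, for counting error only.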
